A study of Mus musculus with 8 samples.

Results

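Genes of the lipid droplet coat and of droplet lipolysis were examined in fasted mouse liver: the perilipins Plin2, Plin3, Plin4 and Plin5, the CIDE genes Cidea, Cideb and Cidec, and the lipolysis factors Pnpla2, Abhd5 and G0s2. Each of the 10 had a probe set annotated to it and to no other gene, and they are 10 of the 19938 genes measured in this way. RNA came from whole livers of C57BL6 mice, each sample on its own Affymetrix Mouse Gene 1.0 ST array, after 17 h of fasting. The hydrogen water group (4 arrays) had drunk hydrogen water for 4 weeks from 7 weeks of age, and the control group (4 arrays) is labelled as fasted only. The comparison asked which of these transcripts differed between hydrogen water and control livers. The treatment text, hydrogen water for 4 weeks from 7 weeks of age, is the same for all 8 samples, controls included. Groups were therefore taken from the sample titles. Beyond that text, the labels do not say what the controls drank. The labels also do not state that each array is a separate animal, so p-values may measure only the spread between these samples.

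A lipid droplet is a core of triglyceride under a phospholipid monolayer that carries a protein coat. Perilipins form that coat and limit the access of lipases, and CIDE proteins move lipid between touching droplets or, in the case of CIDEB, help to load lipid onto very low density lipoprotein. Lipolysis starts with PNPLA2 (adipose triglyceride lipase, ATGL), which ABHD5 activates and G0S2 inhibits. In fasting, fatty acids from adipose tissue reach the liver, where they are stored in droplets, oxidised or secreted, and Plin2 is a known target of the fasting receptor PPARalpha in mouse liver.

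The stretch around the transcription start is shown for 3 of the 10 genes: the main droplet coat gene, the lipase and its inhibitor. The sequences are RefSeq's on GRCm38.p6, each 300 bases long, from 250 bases before the annotated start to 50 after it, and read in the direction of the gene. Capitals mark matches on either strand to any of the motifs searched, which were AGGTCA (a nuclear receptor half-site), CACGTG (an E-box), GGGCGG (a GC box), TGTTTAC (a forkhead site) and TGACG (the core of the cAMP response element).
Plin2, chr4:86670010-86670309, minus strand: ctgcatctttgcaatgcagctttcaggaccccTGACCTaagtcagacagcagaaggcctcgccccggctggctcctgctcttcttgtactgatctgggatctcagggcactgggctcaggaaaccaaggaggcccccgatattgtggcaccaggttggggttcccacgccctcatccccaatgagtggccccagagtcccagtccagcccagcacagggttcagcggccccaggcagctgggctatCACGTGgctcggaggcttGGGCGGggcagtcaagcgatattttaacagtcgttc
Pnpla2, chr7:141454938-141455237, plus strand: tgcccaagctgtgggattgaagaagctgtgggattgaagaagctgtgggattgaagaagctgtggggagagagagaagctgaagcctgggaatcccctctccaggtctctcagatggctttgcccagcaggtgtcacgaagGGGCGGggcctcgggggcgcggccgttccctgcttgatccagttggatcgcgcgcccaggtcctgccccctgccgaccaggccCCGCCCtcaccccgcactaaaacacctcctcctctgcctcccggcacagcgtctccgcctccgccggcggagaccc
G0s2, chr1:193273139-193273438, minus strand: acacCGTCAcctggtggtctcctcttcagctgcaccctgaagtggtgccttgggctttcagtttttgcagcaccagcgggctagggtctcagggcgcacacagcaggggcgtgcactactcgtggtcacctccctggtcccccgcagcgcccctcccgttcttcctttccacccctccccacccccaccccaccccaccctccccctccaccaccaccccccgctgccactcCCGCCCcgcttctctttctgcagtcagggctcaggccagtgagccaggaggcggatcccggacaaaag
The Plin2 window held 1 nuclear receptor half-site on the opposite strand, 1 E-box and 1 GC box. The Pnpla2 window held 2 GC boxes and none of the other motifs, and the G0s2 window held 1 GC box and 1 cAMP response core. Of the 10 genes, 9 had windows in the table, 11 windows in all, because Plin5 and Cidec have 2 each and those of Plin5 overlap. GC boxes were in 8 of the 11 windows, against 35.7% of all 32851 windows, and nuclear receptor half-sites were in 4 of the 11, against 16.3% of all windows. The E-box of Plin2 was the single one among the 11 windows (7.15% of all windows hold one), cAMP response cores were in 2 (20.8% of all windows), and the forkhead site (3.65% of all windows) matched in none. Neither window of Cidec held any of the motifs. A match or its absence in these windows is a description of the letters only.

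Values are log2 signals as deposited, so a difference of 1 is a doubling of signal. The median signal of an array lay between 5.27 and 5.37, and arrays correlated at 0.988 or more over all genes. The livers carried hepatocyte markers at high signal, such as Alb at 14.33 ± 0.05 with hydrogen water and 14.38 ± 0.07 in controls (SD, n = 4 each). Of the 10 droplet genes, 9 had a mean signal above the median of all genes (5.87), and Cidea lay below it.

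None of the 10 genes passed the test over all genes. By limma with Benjamini-Hochberg adjustment over 19938 genes, 0 of the 10 had an adjusted p under 0.05 (background 0% of all genes), and their adjusted p lay between 0.64 and 0.98. At an unadjusted p under 0.05 there were 2, Pnpla2 and Plin2, both higher with hydrogen water, against 7.17% of all genes (3.6% higher and 3.57% lower). The mean was higher with hydrogen water in 7 of the 10 genes, against 48.7% of all genes; leaving out 1 array moved that count to between 5 (without control 2) and 8, and it was 6 without control 1. The signals of the groups did not overlap in 1 gene, Pnpla2, where 3.76% of all genes show no overlap in either direction with 1.76% wholly higher and 2.01% wholly lower with hydrogen water.

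**Figure D1:**
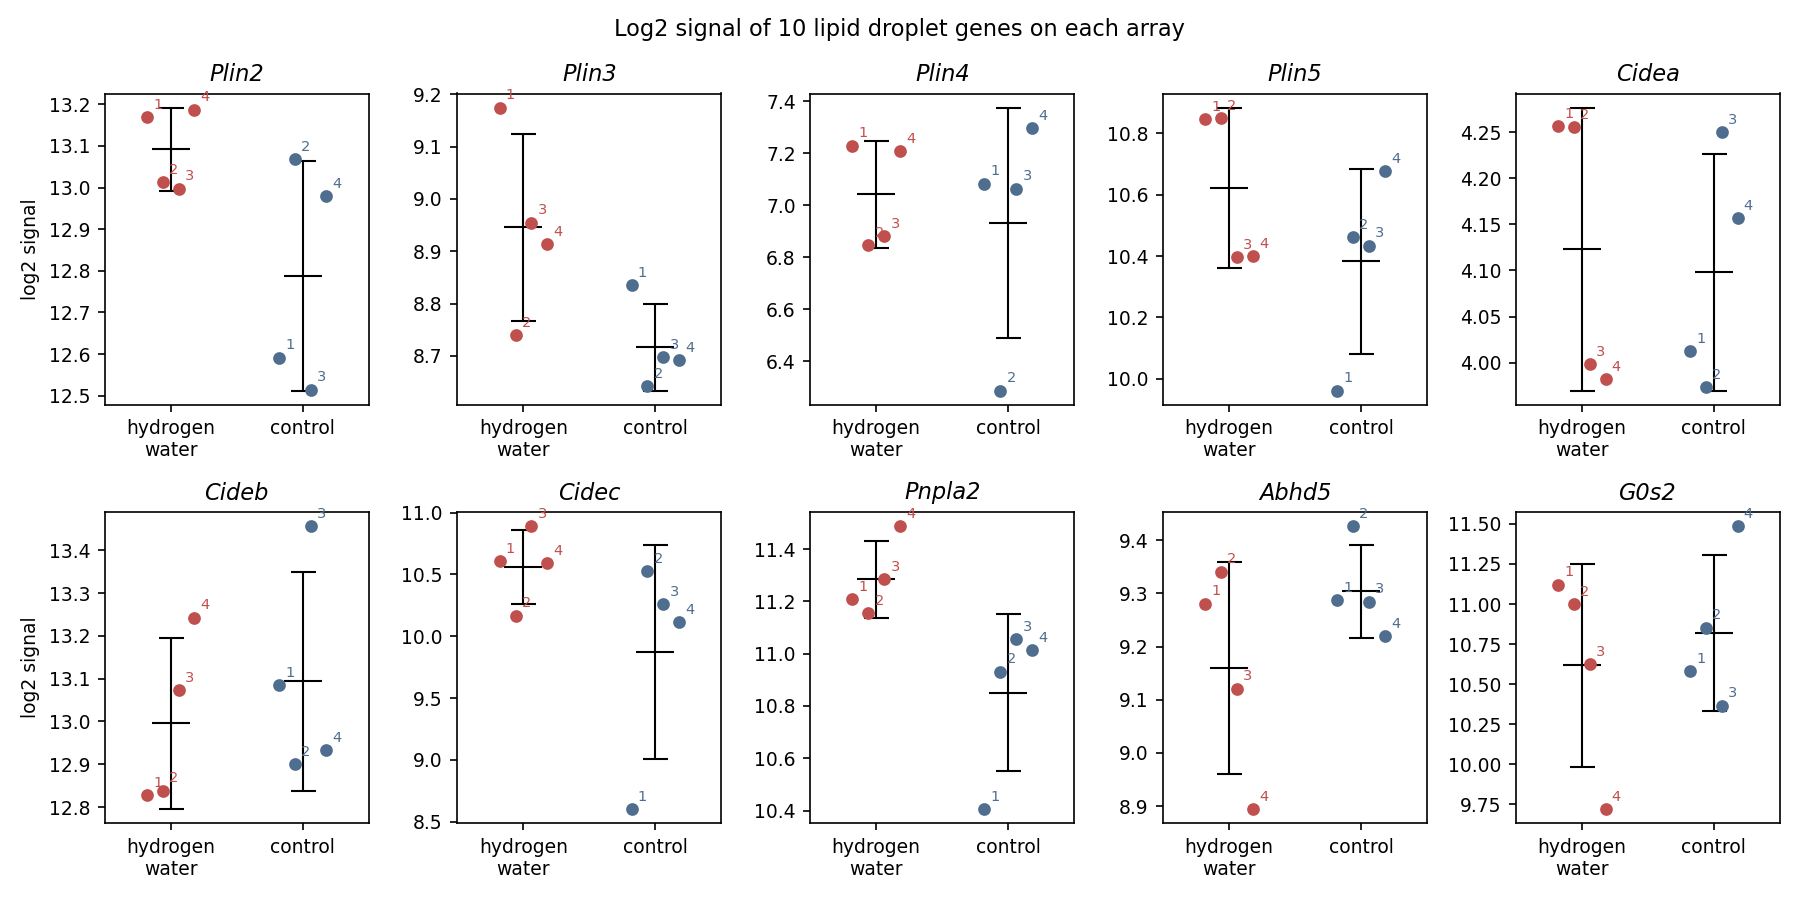
Log2 signal (vertical axes, each with its own range) of each of the 10 genes on the 4 hydrogen water arrays (left, red) and the 4 control arrays (right, blue); numbers are replicate numbers, long bars the group mean and whiskers 1 SD. The groups are separate for Pnpla2 alone, control 1 lies low for Cidec, Pnpla2 and Plin5, control 2 lies low for Plin4, and hydrogen water 4 lies low for G0s2 and Abhd5.

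Plin2, the main perilipin of hepatocyte droplets (transcript cluster 10514221), had log2 signals of 13.17, 13.01, 13.00 and 13.19 on hydrogen water arrays 1 to 4, against 12.59, 13.07, 12.51 and 12.98 on control arrays 1 to 4. The hydrogen water arrays were close together, while controls 1, 3 and 4 lay below them all, control 4 narrowly, and control 2 lay within their range. The means were 13.09 ± 0.10 with hydrogen water and 12.79 ± 0.28 in controls (SD, n = 4 each), a difference of 0.30 (SE 0.14, 95% interval 0.01 to 0.60, limma unadjusted p = 0.0449, adjusted p = 0.687). As a ratio of signals this is 1.23 (95% interval 1.01 to 1.52). The exact permutation test over the 70 assignments of the arrays gave an unadjusted p of 0.114. Without control 3 the difference was 0.21 and without control 2 it was 0.40.

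Plin3, a perilipin that moves between cytosol and droplets (transcript cluster 10452030), stood at 9.17, 8.74, 8.95 and 8.91 with hydrogen water, against 8.84, 8.64, 8.70 and 8.69 in controls. Hydrogen water 2 was the array that fell among the controls. The difference was 0.23 (SE 0.11, 95% interval −0.01 to 0.47, limma adjusted p = 0.709), and it was 0.15 without hydrogen water 1. Plin5, which coats droplets in oxidative tissues and tethers them to mitochondria (transcript cluster 10451943), stood at 10.85, 10.85, 10.40 and 10.40 with hydrogen water, against 9.96, 10.46, 10.43 and 10.68 in controls. Hydrogen water arrays 1 and 2 were the highest of the 8, whereas arrays 3 and 4 lay among the controls. Its difference was 0.24 (SE 0.17, 95% interval −0.12 to 0.60, limma adjusted p = 0.812) and 0.10 without control 1. Plin4, a perilipin best known from adipocytes (transcript cluster 10451932), stood at 7.23, 6.85, 6.88 and 7.21 with hydrogen water, against 7.08, 6.29, 7.06 and 7.30 in controls. Its groups overlapped almost fully apart from the low control 2. The difference was 0.11 (SE 0.19, 95% interval −0.31 to 0.53, limma adjusted p = 0.942), and without control 2 it turned to −0.11. All 4 perilipins thus had a higher mean with hydrogen water in the full set of arrays, by 0.11 to 0.30, and 0 of the 4 passed the test.

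Cidec, also known as FSP27, drives the fusion of droplets into larger ones (transcript cluster 10546929). Its signals were 10.61, 10.17, 10.89 and 10.59 with hydrogen water, against 8.60, 10.52, 10.26 and 10.11 in controls. Control 1 lay 1.51 below the next lowest control, and the other 3 controls overlapped the hydrogen water arrays. The difference was 0.69 (SE 0.34, 95% interval −0.05 to 1.42, limma adjusted p = 0.715), the largest of the 10, and it was 0.26 without control 1 and 0.90 without control 2. Cideb, the CIDE gene of hepatocytes (transcript cluster 10420165), stood at 12.83, 12.84, 13.07 and 13.24 with hydrogen water, against 13.08, 12.90, 13.46 and 12.93 in controls. The groups overlapped, with a difference of −0.10 (SE 0.14, 95% interval −0.41 to 0.22, limma adjusted p = 0.925), and it was 0.02 without control 3. Cidea, a CIDE gene of brown fat that appears in fatty liver (transcript cluster 10456392), had low signals of 3.98 to 4.26 with hydrogen water and 3.97 to 4.25 in controls. Its difference was 0.03 (95% interval −0.22 to 0.27, limma adjusted p = 0.98), and it turned to −0.04 with quantile normalization and to −0.01 with each array centred on its median.

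Pnpla2 (transcript cluster 10558921), the lipase that removes the first fatty acid from triglyceride, gave the smallest unadjusted p of the 10 genes. Its signals were 11.21, 11.15, 11.29 and 11.49 with hydrogen water, against 10.41, 10.93, 11.06 and 11.01 in controls. Every hydrogen water array lay above every control array, with the lowest hydrogen water array 0.10 above the highest control. The means were 11.28 ± 0.15 with hydrogen water and 10.85 ± 0.30 in controls (SD, n = 4 each), a difference of 0.43 (SE 0.15, 95% interval 0.11 to 0.75), or a signal ratio of 1.35 (95% interval 1.08 to 1.69). Limma gave an unadjusted p of 0.0125 and an adjusted p of 0.64, and the exact permutation test gave 0.0286 unadjusted, the smallest p that 4 against 4 arrays allow. Control 1 was the lowest array here as for Cidec; without it the difference was 0.28 (limma unadjusted p = 0.0329, adjusted p = 0.79).

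Neither the activator nor the inhibitor of the lipase had groups that lay apart. Abhd5 (transcript cluster 10590452) stood at 9.28, 9.34, 9.12 and 8.89 with hydrogen water, against 9.29, 9.43, 9.28 and 9.22 in controls, and hydrogen water arrays 3 and 4 were below every control. Its difference was −0.14 (SE 0.12, 95% interval −0.40 to 0.11, limma adjusted p = 0.85), and −0.06 without hydrogen water 4. G0s2 (transcript cluster 10361246) stood at 11.12, 11.00, 10.63 and 9.72 with hydrogen water, against 10.58, 10.85, 10.37 and 11.49 in controls. Hydrogen water 4 held the lowest and control 4 the highest signal, and the other 6 arrays were mixed. Its difference was −0.20 (SE 0.30, 95% interval −0.85 to 0.44, limma adjusted p = 0.925), and it was 0.09 without hydrogen water 4 and 0.02 without control 4. The G0s2 interval holds a difference of the size seen for Plin2 in either direction.

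**Figure D2:**
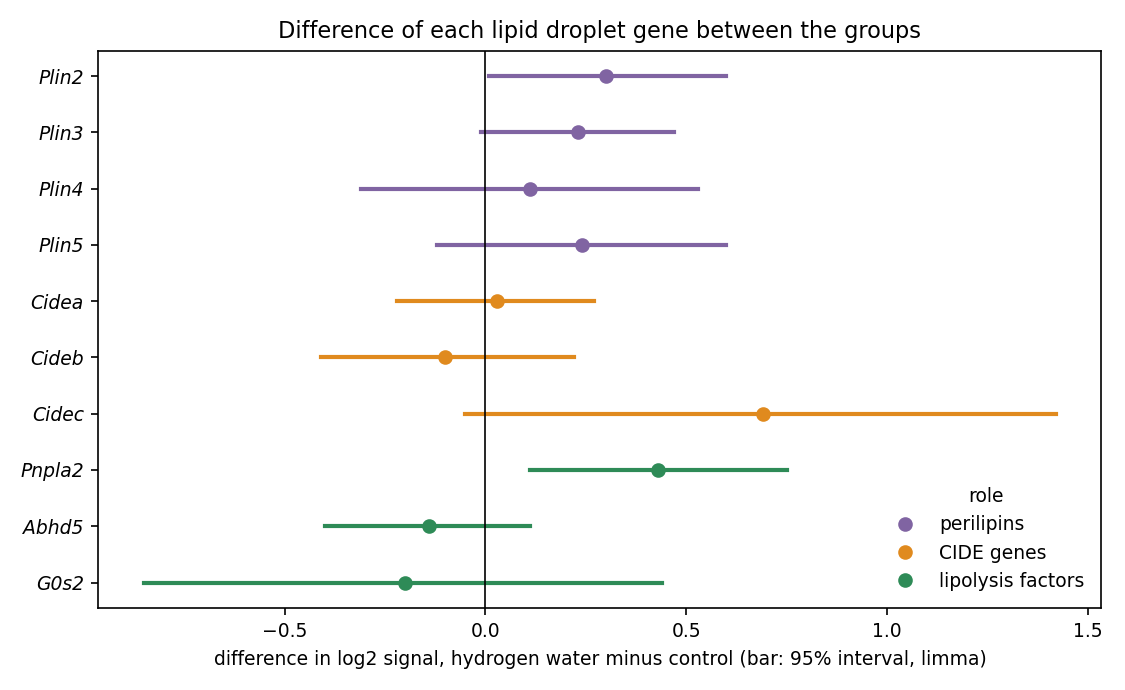
Difference in log2 signal, hydrogen water minus control (horizontal axis), for each gene (points) with its 95% interval from limma (bars), coloured by role. The intervals of Plin2 (0.01 to 0.60) and Pnpla2 (0.11 to 0.75) lie above 0 without adjustment, and those of Cidec and G0s2 are the widest.

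Perilipins and CIDE genes were set against the lipolysis factors. The median difference was 0.23 over the 7 perilipin and CIDE genes, of which 6 were higher with hydrogen water, and −0.14 over the 3 lipolysis factors, of which 1 was higher. Over all genes the median difference was −0.005, and the middle 90% of genes lay between −0.27 and 0.27. The 3 genes outside that range, Plin2, Cidec and Pnpla2, came from both sides of the comparison. With each gene centred on its own mean over the 8 arrays, the mean of the 7 perilipin and CIDE genes minus the mean of the 3 lipolysis factors was 0.01, −0.15, 0.08 and 0.43 on hydrogen water arrays 1 to 4, against −0.10, −0.18, 0.11 and −0.20 on control arrays 1 to 4. Hydrogen water 4 stood above the rest, and the other 3 hydrogen water arrays lay within the range of the controls. The group means were 0.09 ± 0.24 with hydrogen water and −0.09 ± 0.14 in controls (SD, n = 4 each), a difference of 0.19 that is smaller than the spread within the hydrogen water group and that was 0.07 without hydrogen water 4. The median over the lipolysis factors joins genes that stood in opposite directions. It was 0.09 without hydrogen water 4 and 0.02 without control 4.

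The lipase and its inhibitor diverged most on a single array. The centred signal of Pnpla2 minus that of G0s2 was −0.26, −0.19, 0.31 and 1.42 on hydrogen water arrays 1 to 4, against −0.52, −0.27, 0.34 and −0.82 on control arrays 1 to 4. Hydrogen water 4 had the highest Pnpla2 and the lowest G0s2 and Abhd5 of the 8 arrays, and the other arrays overlapped between the groups.

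**Figure D3:**
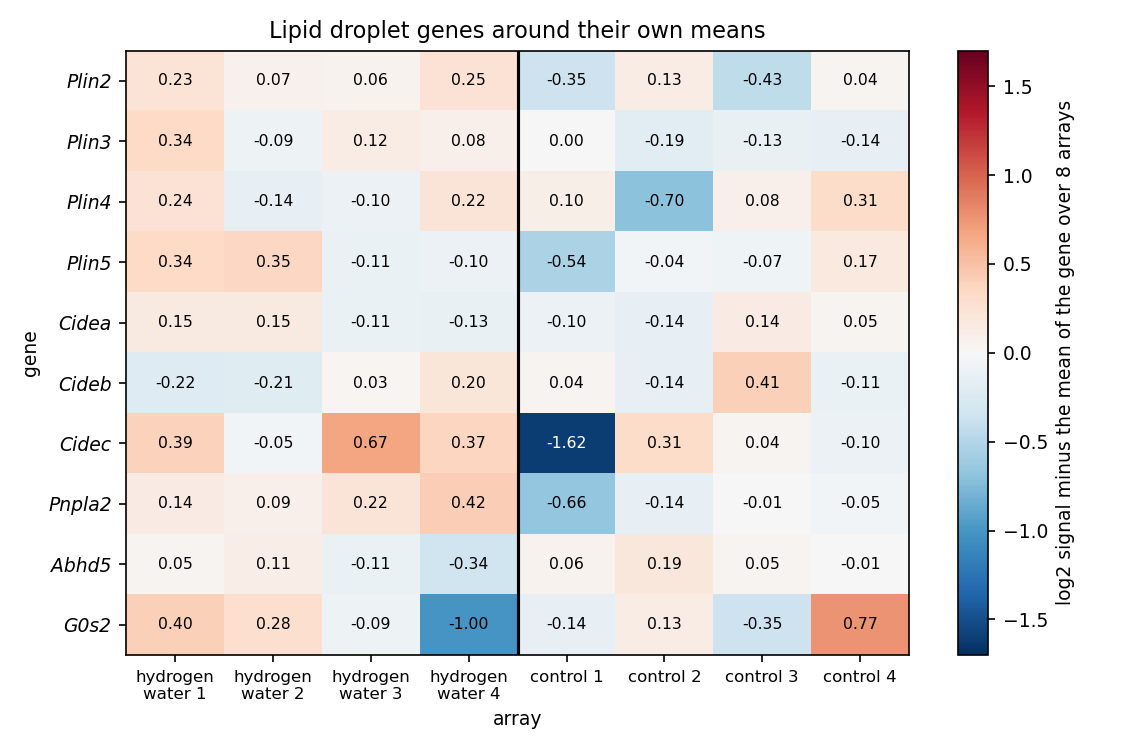
Log2 signal minus each gene's mean over the 8 arrays (colour and printed value) for the 10 genes (rows) on hydrogen water arrays (left of the line) and control arrays (right of it). Control 1 is at −1.62 for Cidec and −0.66 for Pnpla2, and hydrogen water 4 is at −1.0 for G0s2.

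The genes differed in how much they varied between arrays of the same group. The residual SD of the fit was 0.65 for Cidec and 0.56 for G0s2, at the 99.5th and 99.2nd percentile of all genes, and 0.35 for Plin4, at the 94.3rd percentile. Plin3 and Abhd5, with residual SDs of 0.14 and 0.15, lay below the median of all genes (0.18), as did the dim Cidea (0.14). In all, 7 of the 10 genes varied more within groups than the median gene.

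Hydrogen water 1 was above the mean over the 8 arrays in 9 of the 10 genes, and controls 1 and 2 were above it in 4 each. Over the 45 pairs of genes, Pearson correlations across the 8 arrays were positive in 26. The strongest was between Cidec and Pnpla2 (r = 0.88, exact permutation p = 0.0156, adjusted over 45 pairs p = 0.572; Spearman rho = 0.76, exact p = 0.0368, adjusted p = 0.518; n = 8). It was 0.86 with the group means removed but 0.46 without the 2 arrays farthest from the median of Cidec, control 1 among them. Leaving out the extremes of Cidec also narrows its range, so the fall cannot show that the relation rests on those arrays. Cideb and G0s2 ran opposite to each other (r = −0.74, exact permutation p = 0.0372, adjusted p = 0.572; rho = −0.83, exact p = 0.0154, adjusted p = 0.518; n = 8), with r = −0.83 after removal of group means and −0.64 without the 2 farthest arrays. By the adjusted exact p, 0 of the 45 pairs passed by either coefficient, and 2 had an unadjusted Pearson p under 0.05.

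**Figure D4:**
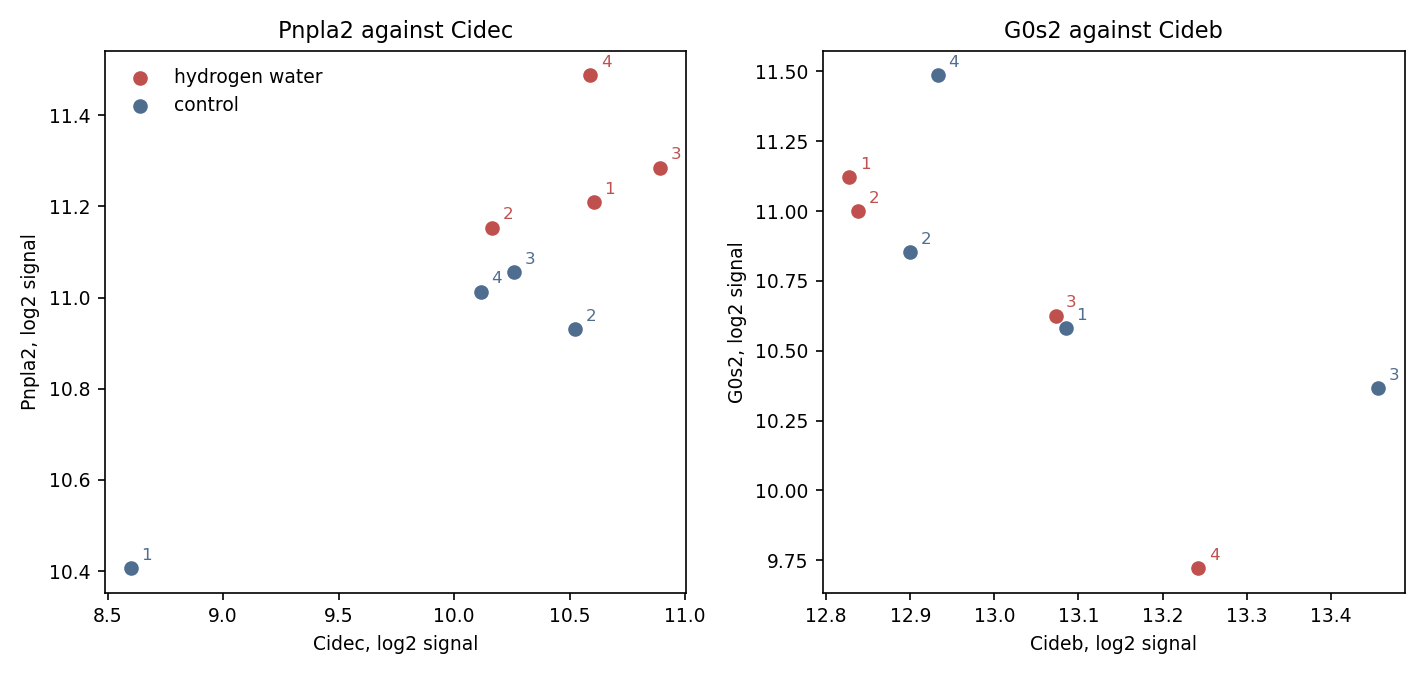
Log2 signal of Pnpla2 against Cidec (left) and of G0s2 against Cideb (right), a point per array with its replicate number, hydrogen water in red and control in blue. In the left panel control 1 lies far from the other 7 arrays; in the right panel G0s2 is lowest on hydrogen water 4 and highest on control 4.

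Other proteins of the droplet were measured in 19 of 21 genes listed, and 0 passed the test over all genes in either direction. Their median difference was 0.00, with 10 higher and 9 lower with hydrogen water. The FIT genes, whose products partition triglyceride into droplets at the endoplasmic reticulum, stood in opposite directions. Fitm2 had signals of 9.45, 9.48, 9.36 and 9.37 with hydrogen water, against 8.78, 9.28, 8.75 and 9.22 in controls, a difference of 0.41 (SE 0.13, limma adjusted p = 0.638). Fitm1 had 9.80, 9.59, 9.83 and 9.64 with hydrogen water, against 10.68, 10.33, 9.93 and 10.06 in controls, a difference of −0.54 (SE 0.15, limma adjusted p = 0.631). The groups were separate for both FIT genes and for Plin1, the perilipin of adipocytes. Plin1 lay below the median of all genes (5.87), at 5.30 ± 0.14 with hydrogen water and 5.58 ± 0.11 in controls (SD, n = 4 each, limma adjusted p = 0.68). The groups were also separate for Aup1, a droplet and endoplasmic reticulum protein, with a difference of −0.18 (SE 0.10). Of the 19 genes, 1 was thus wholly higher and 3 wholly lower, against 1.76% and 2.01% of all genes. The lists were chosen with earlier results of these data known, and this count was not tested. Ldah, a droplet-associated hydrolase, differed by 0.21 (SE 0.12) and the lipid transfer gene Vps13d by 0.18 (SE 0.12). Hsd17b13, a droplet protein abundant in hepatocytes, differed by 0.01 (95% interval −0.30 to 0.32), Pnpla3, a droplet protein linked to fatty liver in humans, by 0.01 (95% interval −0.19 to 0.22), and Hilpda, an inhibitor of PNPLA2, by 0.17 (95% interval −0.31 to 0.65).

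Other lipases and their partners were measured in 18 of 19 genes listed; 7 were higher and 11 lower, with a median of −0.02, and 0 passed in either direction. Lipe, the hormone-sensitive lipase that acts after PNPLA2, stood at 8.16 ± 0.23 with hydrogen water and 7.92 ± 0.04 in controls (SD, n = 4 each), a difference of 0.24 (SE 0.12, limma adjusted p = 0.719), from signals of 7.97, 7.96, 8.40 and 8.31 on hydrogen water arrays 1 to 4 against 7.88, 7.89, 7.94 and 7.96 on control arrays 1 to 4. Hydrogen water 3 and 4 lay above the controls, and hydrogen water 1 and 2 were level with the highest of them. Mgll, which cleaves the last fatty acid, differed by 0.15 (95% interval −0.17 to 0.46). Arf1, a small GTPase of the coat machinery that delivers PNPLA2 to droplets, differed by 0.30 (SE 0.12) and the phospholipase Pnpla8 by 0.21 (SE 0.10). On the lower side were the lysosomal lipase Lipa at −0.24 (SE 0.12), the carboxylesterase Ces1d at −0.24 (SE 0.13) and the deacetylase Aadac at −0.23 (SE 0.12). Limma adjusted p-values ran from 0.687 to 0.744 over these 5 genes.

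Triglyceride synthesis genes were measured in 15 of 16 listed, with 9 higher, 6 lower and a median of 0.06; 0 passed in either direction. Lpin1, a phosphatidate phosphatase, had the widest difference of this list, 0.67 (SE 0.27, limma adjusted p = 0.687), with signals of 11.98, 11.76, 11.92 and 12.82 on hydrogen water arrays against 10.76, 11.41, 11.55 and 12.08 on control arrays. Its lowest array was control 1 and its highest hydrogen water 4, the arrays at the ends of the Pnpla2 range too. Lpin2 differed by 0.28 (SE 0.14) and the acyltransferase Gpat4 by 0.23 (SE 0.13), while the acyltransferases Mogat1 and Agpat2 differed by −0.31 (SE 0.12) and −0.17 (SE 0.10). Mogat1 lay below the median of all genes (5.87), at 4.90 ± 0.14 with hydrogen water and 5.20 ± 0.20 in controls (SD, n = 4 each). Dgat1 and Dgat2, which make the final acylation step, differed by −0.14 (95% interval −0.36 to 0.08) and 0.03 (95% interval −0.20 to 0.25).

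PPAR factors and fasting targets were measured in 21 of 24 listed, with 16 higher, 5 lower and a median of 0.11. Over all genes, 48.7% were higher and the median was −0.005. The count in this list was not tested, and 0 of its genes passed in either direction. Ppara itself had signals of 11.13, 11.11, 11.26 and 11.67 with hydrogen water, against 11.05, 10.97, 11.05 and 10.80 in controls. These do not overlap, which held for 1 of the 21 genes and for 3.76% of all genes. The Ppara difference was 0.33 (SE 0.13, limma adjusted p = 0.687). Its partner Rxra differed by 0.36 (SE 0.16) and the thioesterase Acot2 by 0.31 (SE 0.15). Cpt1a, Angptl4 and Ppargc1a differed by 0.15 (SE 0.11), 0.16 (SE 0.15) and 0.09 (SE 0.35), and on the lower side Pparg, Cd36 and Vnn1 by −0.22 (SE 0.17), −0.15 (SE 0.15) and −0.10 (SE 0.17). Over these 8 genes limma's adjusted p ran from 0.687 to 0.978.

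**Figure D5:**
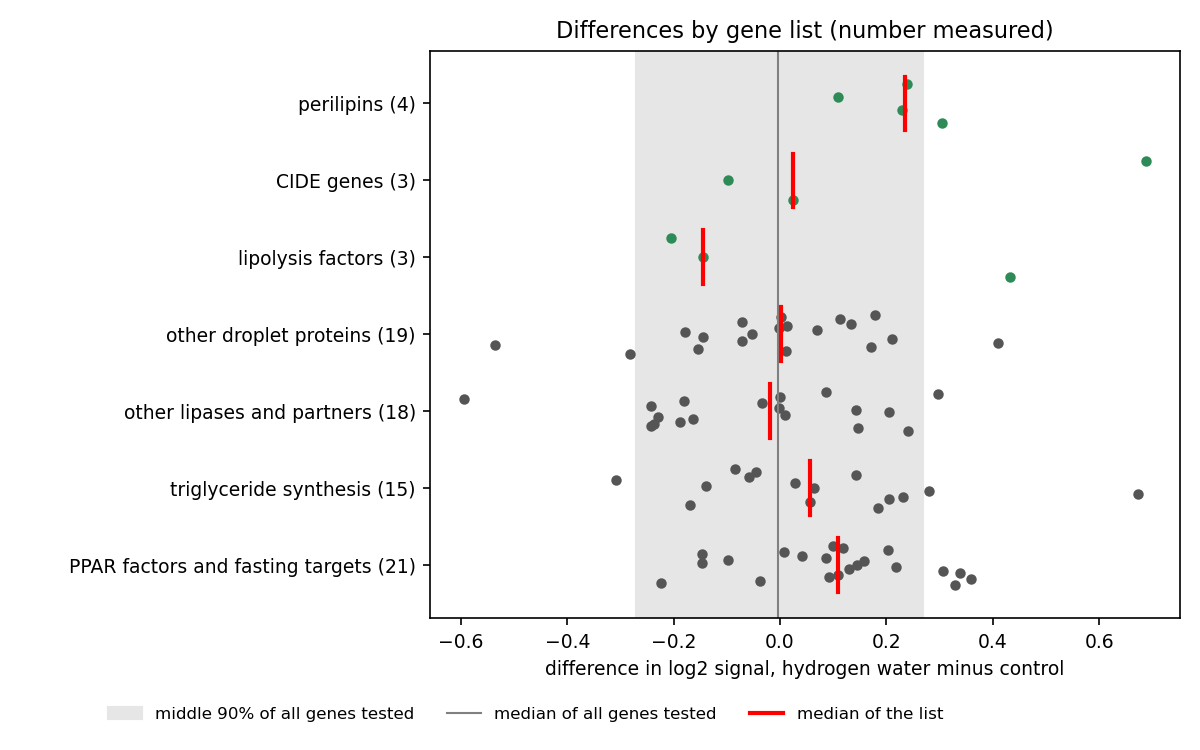
Difference in log2 signal, hydrogen water minus control (horizontal axis), for each measured gene of 7 lists (points; green for the 10 droplet coat and lipolysis genes), with the median of each list (red bar); the grey line and band are the median and the middle 90% of all genes tested. The medians of the 4 wider lists lie between −0.02 and 0.11.

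Markers of other cells were read beside these results, because whole liver was measured and fewer cells of a type cannot be told apart from less RNA per cell. Of 11 measured adipocyte markers, 2 were higher and 9 lower with hydrogen water, where 48.7% of all genes were higher. Their summed log2 signal lay between 59.98 and 62.09 on hydrogen water arrays and between 61.63 and 63.52 on control arrays. Adipoq, the defining adipocyte hormone, was among the dim genes, at 3.34 ± 0.13 with hydrogen water and 3.49 ± 0.14 in controls (SD, n = 4 each; array signals have no true 0). Of 14 Kupffer cell markers, 14 were higher, against 48.7% of all genes, with a median difference of 0.31. By limma, 4 of the 14 had an unadjusted p under 0.05, against 7.17% of all genes. The adjusted threshold was passed by 0 of them, as in the other marker lists. Their summed log2 signal was 93.27 to 102.64 on hydrogen water arrays and 89.81 to 96.99 on control arrays. It was highest on hydrogen water 4, which also had the highest Pnpla2. The lowest sum was on control 4, whereas Pnpla2 was lowest on control 1, where the sum was 92.19. The part of adipocyte or Kupffer cell RNA in the Pnpla2 and Plin2 differences was not tested. Of 14 measured stellate cell markers, 6 were higher and 8 lower, and the summed log2 signal was 107.51 to 114.16 on hydrogen water arrays and 110.16 to 113.14 on control arrays. Of 9 measured hepatocyte markers, 5 were higher and 4 lower, with a summed log2 signal of 125.97 to 126.33 on hydrogen water arrays and 125.82 to 126.13 on control arrays.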

How the data were processed

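Per the labels' protocols, liver RNA was isolated on RNeasy columns and biotin-labelled after amplification (Ambion kit), for 8 arrays. The authors deposited 1 table of log2 signals; the submitters' processing notes name Affymetrix Expression Console. Its version, the normalization method and a genome build were not given in the sources used here. The log2 scale was read from the values. Of 35556 probe sets, 21789 had 1 gene symbol, 1621 several and 12146 were unnamed here. Symbols were updated through a RefSeq table of GRCm38.p6 (19856 of 19938 genes matched). Where several probe sets named a gene, that of highest mean signal was kept; each of the 10 genes had a single one.

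The test was limma's (version 3.58.1, R 4.3.3; lmFit, eBayes, 2 groups, no covariate, no level filter, two-sided), with Benjamini-Hochberg adjustment over all genes and a threshold of 0.05; intervals are 95% intervals. It was checked on simulated data. Exact permutation tests were two-sided. The genes and lists were chosen with earlier results of these data known, so no p was adjusted over the lists alone. Besides the 10 genes, 13 genes were to be named whatever their values, and in each of the 4 wider lists the 3 per direction whose unadjusted p was lowest. Listed genes without a probe set of their own are not analysed here. The alternatives were a filter on dim probe sets (lower 25%), averaged probe sets per gene, array weights, quantile normalization, a trended and robust variance, median centring, a block for the replicate number, each array left out and the exact permutation test. No pseudocount was needed. No depth applies to arrays. Plots were drawn with matplotlib 3.10.9.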

Additional observations from a re-analysis of the deposited data

How the results depend on the processing

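Of the 10 genes, 0 passed the adjusted threshold under any of the 16 alternatives, and their lowest adjusted p by limma was 0.35 (Pnpla2 with array weights). The exact permutation test adds little here, because its smallest possible p is 0.0286 before adjustment. Its lowest adjusted p over all genes was 0.76. Plin2, Plin3, Plin5, Cidec, Pnpla2 and Abhd5 kept their direction under all 16. For these genes the dim filter, averaged probe sets, trended and robust variance, block and permutation test leave the difference as it was. Those alternatives could therefore not change a direction. With 1 array left out, the difference ranged from −0.11 to 0.23 for Plin4 (below 0 without control 2), from −0.02 to 0.08 for Cidea (at or below 0 without control 1, control 2, hydrogen water 1 or hydrogen water 2), from −0.18 to 0.02 for Cideb (above 0 without control 3) and from −0.37 to 0.09 for G0s2 (above 0 without control 4 or hydrogen water 4). Cidea also turned to −0.04 with quantile normalization and −0.01 with median centring. Median centring shifts the differences of all genes by the same amount, and their median went from −0.005 to −0.04 with it. The cause of the turn with quantile normalization was not tested. The dim filter removed Cidea. The number of the 10 genes at an unadjusted p under 0.05 was 1 with median centring and 1 to 3 with 1 array left out. Plin2 was not among them with median centring, with array weights (0.21, unadjusted p = 0.119, while Plin3 was), or without control 1, control 3 or any 1 of the 4 hydrogen water arrays. Pnpla2 was among them each time, and it was the single one without control 1, hydrogen water 1, hydrogen water 3 or hydrogen water 4. The number of all genes past the adjusted threshold was 0 to 1 with 1 array left out: Sucnr1 without control 2 and Aqp8 without control 3, both named after their values were seen. The median difference of the lipolysis factors ranged from −0.21 to 0.09 and was above 0 without hydrogen water 4 (0.09) or control 4 (0.02). The median of all genes lay within −0.04 and 0 under every scaling.

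The labels do not say what the replicate numbers mark. Same-numbered arrays' deviations from their group means correlated between −0.159 and 0.0587, and 0 arrays correlated best with their own number. These values showed no pairing by number, but with 4 arrays per group they cannot exclude it. With the replicate number as a block, 0 genes passed, and 3 of the 10 had an unadjusted limma p under 0.05, against 2 without it. The 3 were Plin2, Cidec and Pnpla2, with differences of 0.30, 0.69 and 0.43.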
